A study of Rattus norvegicus with 6 samples.

Results

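The genes described here are 9 rat enzymes that oxidise or reduce steroids, or that belong to the families of enzymes which do: Hsd3b1, Hsd3b2, Hsd11b1, Hsd17b2, Hsd17b6, Hsd17b10, Hsd17b11, Hsd17b13 and Srd5a1. They were taken by name, and their probes were found through the RefSeq accession that the array files give for each probe. All 9 were on the array with 15 probes in all, 1 probe for 3 genes and 2 probes for 6 genes, out of 15278 genes named on it. All 15 probes passed the filter on dim signals, so that each of the 9 genes is among the 11338 genes tested.

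Liver RNA was measured in 6 male Sprague-Dawley (Crl:CD(SD)) rats, for which the labels give no genotype beyond the strain, with 1 single-colour Agilent array for each rat. In the treated group, 3 rats received 1-amino-2,4-dibromoanthraquinone (ADBAQ), an anthraquinone dye intermediate, at 1000 mg/kg/day, and 3 rats received vehicle alone. All were bought at 5 weeks of age, and age at sampling is not stated. The labels name the vehicle as purified water in one place and corn oil in another, and give the duration as 28 days in one place and 9 weeks in another. The labels say that the animals were separate. The comparison asks how the liver's steroid-handling enzymes differ between exposed and control rats.

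Steroid hormones are switched on and off in target tissues and in the liver by pairs of enzymes that move hydrogen to or from the steroid. Hydroxysteroid dehydrogenases (Hsd genes) act on hydroxyl or keto groups at named carbons of the ring system, and 5 alpha-reductase (Srd5a1) saturates a ring double bond. In rat liver many of these enzymes clear circulating androgens, oestrogens and glucocorticoids, several differ between males and females under the control of growth hormone, and some members of the family act mainly on fatty acids, retinol or other substrates.

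Values are log2 of the processed signal minus the 75th percentile of that signal on the same array, so a value of 0 is the array's own 75th percentile. That percentile was a signal of 433 to 461 in the controls and 570 to 643 in the treated rats. A change in these values is therefore a change relative to the other probes of the array. Scaled instead to the spike-in controls, which are fixed RNAs added before labelling, the median of all tested genes changed by 0.72 on the log2 scale, against -0.04 with the 75th percentile. All vehicle arrays were on slide 1, scanned on day 1, and all ADBAQ arrays on slide 2, scanned on day 2, so that slide, scan day and treatment cannot be told apart. Between 62.1% and 65.3% of the 61657 probes were well above background on an array, and none was saturated. In whole liver, fewer cells of a type and less RNA in each cell cannot be told apart.

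Relative to the 75th percentile, 6 of the 9 genes fell in ADBAQ and none rose, at an adjusted p under 0.05 in limma. The 6 were Hsd3b1, Hsd3b2, Hsd11b1, Hsd17b6, Hsd17b10 and Hsd17b11. Over all genes tested 11.3% were lower and 9.06% higher by the same rule, or 20.3% in either direction. The median log2 fold change of the 9 genes was -0.81, against -0.04 for all genes. By probe, 10 of 15 were lower and 5 did not pass the test, where 10.4% of named probes were lower. One of the 10, the dim Hsd3b1 probe, passed the filter only through the vehicle group, where it is higher, and of the 14 probes well above background on all 6 arrays 9 were lower. With 1 rat left out, 3 to 5 of the 9 genes were lower, the fewest without vehicle rat 2. All 15 probes had a negative log2 fold change. In 7 of the 9 genes every ADBAQ value lay below every vehicle value, which held for 25.1% of all genes, with 21.2% the other way round. The same held for 11 of the 15 probes, and for 23.8% of named probes. With spike-in scaling the count was 2 lower and 1 higher, against 1.66% lower and 78.8% higher over all genes. The 2 that stayed lower were Hsd3b1 and Hsd3b2, and the 1 that was higher was Hsd17b10. These 9 genes were proposed with earlier results of the same data in view, so the counts describe them and test nothing about the group.

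**Figure D1:**
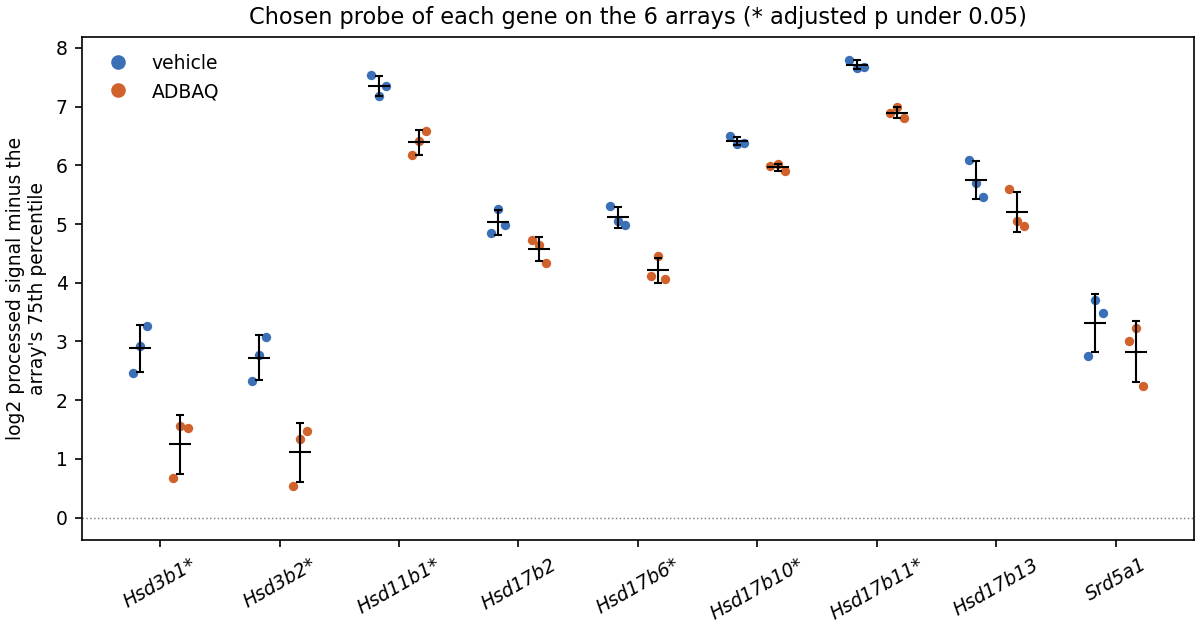
Log2 signal over the 75th percentile of its array (vertical axis) for the chosen probe of each of the 9 genes, with 3 vehicle rats in blue and 3 ADBAQ rats in orange, the mean as a black dash and the SD as a bar. The groups do not overlap for 7 genes, and they overlap for Hsd17b13 and Srd5a1.

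Hsd3b1 and Hsd3b2 encode 3 beta-hydroxysteroid dehydrogenases, which carry out the step that turns pregnenolone into progesterone and dehydroepiandrosterone into androstenedione. They had the largest falls of the 9 genes. The brighter Hsd3b1 probe (NM_001007719) read 2.46, 2.92 and 3.26 in the vehicle rats and 0.67, 1.56 and 1.52 in the ADBAQ rats, as log2 levels over the 75th percentile. The treated rats were all below the controls, and ADBAQ rat 1 was the lowest. The log2 fold change was -1.63 ± 0.31 (SE, n = 3 rats per group; adjusted p = 0.0189), which is 32.3% of the vehicle level. With spike-in scaling it was -0.87 (adjusted p = 0.0245). The second Hsd3b1 probe was dim, at -3.79, -3.32 and -2.70 in vehicle and -5.14, -5.59 and -4.50 in ADBAQ, and it was well above background on 2 of the 3 ADBAQ arrays. It thus passed the filter only through the vehicle group, and its change is given with no test, as -1.81 ± 0.36, or -0.80 with normexp background correction, which raises dim signals by an offset.

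The brighter Hsd3b2 probe (NM_017265) read 2.32, 2.77 and 3.08 in vehicle and 0.54, 1.33 and 1.47 in ADBAQ. As for Hsd3b1, the groups were apart and ADBAQ rat 1 was lowest. Its log2 fold change was -1.61 ± 0.30 (adjusted p = 0.0186), and -0.85 (adjusted p = 0.0254) with spike-in scaling. The other Hsd3b2 probe read 1.18, 1.36 and 1.5 in vehicle and 0.07, 0.92 and 0.15 in ADBAQ. On this probe ADBAQ rat 2 was close to the controls, and the change was -0.97 ± 0.24 (adjusted p = 0.0403) and -0.21 (adjusted p = 0.405) with spike-in scaling. The calls of both brighter probes were lost without vehicle replicate 2 (-1.61 for Hsd3b1 and -1.58 for Hsd3b2, adjusted p = 0.0537 and 0.0532) or vehicle replicate 3 (-1.44 and -1.43, adjusted p = 0.0544 for both). That of the other Hsd3b2 probe was lost without any 1 array except ADBAQ replicate 2 (adjusted p from 0.0687 to 0.112).

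In the RefSeq gene order, Hsd3b1 and Hsd3b2 lie on chromosome 2 in one cluster, in the order Hsd3b5, Hsd3b2, Hsd3b3, Hsd3b1 and Hao2 among protein-coding genes. Hsd3b5 encodes a 3-ketosteroid reductase that is known as a male-predominant liver gene. Its 3 probes all fell, by -1.47 ± 0.29 on the brightest (adjusted p = 0.0206) and by -1.73 ± 0.31 and -1.58 ± 0.33 on the others (adjusted p = 0.0169 and 0.0242). The brightest read 7.79, 8.25 and 8.54 in vehicle and 6.19, 6.88 and 7.07 in ADBAQ, so that within each group the rats stand in the same order as on the brighter Hsd3b2 probe. It missed the threshold when vehicle rat 2, vehicle rat 3 or ADBAQ rat 2 was left out (adjusted p from 0.0519 to 0.0589). The single Hsd3b3 probe was not well above background in any rat and was not tested. Hao2, a peroxisomal hydroxy acid oxidase at the end of the cluster, named after its value was seen, changed by -1.01 ± 0.10 (adjusted p = 0.00417). Over all named genes tested, the 3 whose values followed the brighter Hsd3b1 probe most closely on the 6 arrays were Hsd3b2 (Pearson r = 0.9984), Lrrn3 (0.9968) and Hsd3b5 (0.9967). This is a description over 6 arrays that share the difference between groups. The Hsd3b genes are similar in sequence, and whether their probes read one another's transcripts was not tested, since the array files hold no probe sequences.

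**Figure D2:**
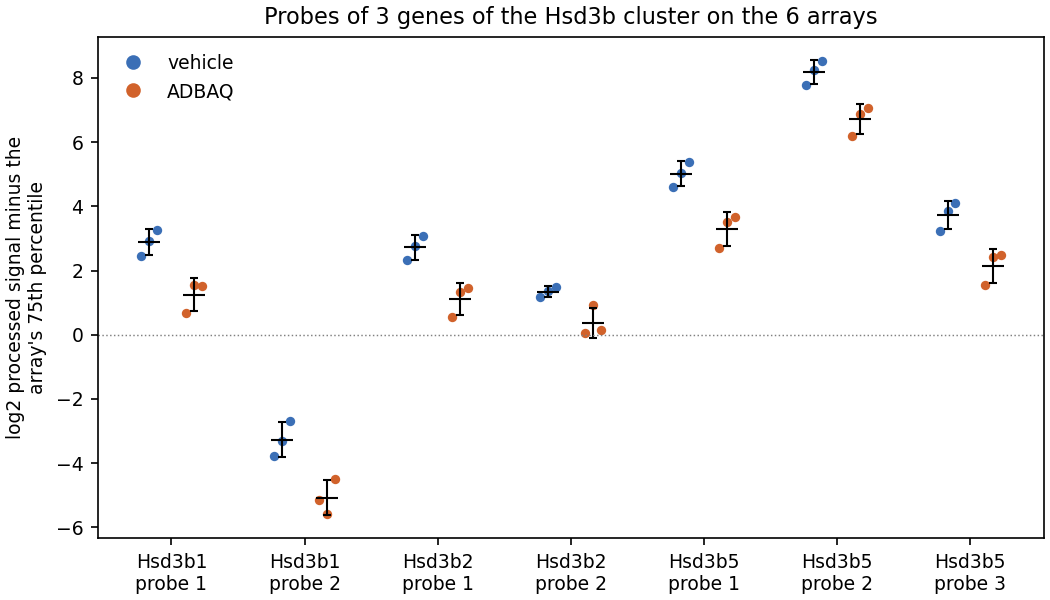
Log2 signal over the 75th percentile of its array (vertical axis) for each probe of Hsd3b1, Hsd3b2 and Hsd3b5, with vehicle rats in blue, ADBAQ rats in orange, the mean as a dash and the SD as a bar. All 7 probes are lower in ADBAQ with no overlap, and the second Hsd3b2 probe has 1 ADBAQ rat at 0.92, near the vehicle values.

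The stretches just upstream of the genes that moved together, and of the adjoining pair Hsd17b11 and Hsd17b13 on chromosome 14, are shown so that the shared and unshared letters can be seen. They come from RefSeq on the GRCr8 build, run 5′ to 3′ on the gene's strand and cover 250 bases before and 50 bases after the annotated start. Windows were held for 6 of the 9 genes, not for Hsd11b1, Hsd17b2 and Hsd17b6. Capitals mark matches, on either strand, to 3 motifs: GCGTG, the core bound by the aryl hydrocarbon receptor, AGAACA, a steroid receptor half-site, and TTCNNNGAA, a STAT site. The windows are Hsd3b1 at chr2:188864645-188864944 and Hsd3b2 at chr2:188794020-188794319, both on the minus strand, and Hsd17b11 at chr14:6016440-6016739 and Hsd17b13 at chr14:6056539-6056838, both on the plus strand.
Hsd3b1: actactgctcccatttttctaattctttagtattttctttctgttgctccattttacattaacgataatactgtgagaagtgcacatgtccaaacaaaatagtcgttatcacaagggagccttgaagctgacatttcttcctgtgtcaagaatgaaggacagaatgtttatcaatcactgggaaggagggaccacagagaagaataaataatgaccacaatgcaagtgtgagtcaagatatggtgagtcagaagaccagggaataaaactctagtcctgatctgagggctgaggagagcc
Hsd3b2: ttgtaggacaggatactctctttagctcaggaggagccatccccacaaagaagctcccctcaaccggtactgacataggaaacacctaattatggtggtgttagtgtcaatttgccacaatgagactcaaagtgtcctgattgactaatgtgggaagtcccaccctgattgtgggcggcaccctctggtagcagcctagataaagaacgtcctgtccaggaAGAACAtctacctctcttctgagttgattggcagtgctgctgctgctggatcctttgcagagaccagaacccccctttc
Hsd17b11: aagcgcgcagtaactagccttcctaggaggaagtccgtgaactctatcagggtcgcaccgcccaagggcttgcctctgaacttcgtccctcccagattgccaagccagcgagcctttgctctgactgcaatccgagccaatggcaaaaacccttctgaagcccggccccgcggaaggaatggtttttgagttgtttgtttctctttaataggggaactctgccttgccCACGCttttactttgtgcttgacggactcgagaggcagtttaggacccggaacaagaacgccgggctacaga
Hsd17b13: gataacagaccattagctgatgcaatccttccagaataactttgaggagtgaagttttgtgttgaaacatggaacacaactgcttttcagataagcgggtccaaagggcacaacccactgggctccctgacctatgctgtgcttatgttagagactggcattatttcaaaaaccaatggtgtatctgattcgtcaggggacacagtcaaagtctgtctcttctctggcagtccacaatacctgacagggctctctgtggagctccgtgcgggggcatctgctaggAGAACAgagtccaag
The Hsd3b1 window held none of the 3 motifs and the Hsd3b2 window held AGAACA once. GCGTG was found once in the Hsd17b11 window and 3 times in that of Hsd17b10, and AGAACA once in that of Hsd17b13. The Srd5a1 window held none of them, and none of the 6 held TTCNNNGAA. Over all 33469 windows of this length, GCGTG was in 29.7%, AGAACA in 20.7% and TTCNNNGAA in 8.87%. No motif overlapped another in the windows shown.

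Hsd11b1 encodes 11 beta-hydroxysteroid dehydrogenase type 1, which regenerates the active glucocorticoid corticosterone inside hepatocytes. Both of its probes (NM_017080) fell. The brighter read 7.53, 7.18 and 7.35 in vehicle and 6.17, 6.42 and 6.58 in ADBAQ, with no overlap. Its log2 fold change was -0.96 ± 0.14 (adjusted p = 0.011), or 51.3% of the vehicle level, and the second probe changed by -0.84 ± 0.15 (adjusted p = 0.017). Both calls held with each array left out in turn (highest adjusted p = 0.0372 and 0.0498). With spike-in scaling the changes were -0.21 (adjusted p = 0.261) and -0.08 (adjusted p = 0.641), so these calls rest on the scaling. H6pd, which supplies NADPH to this enzyme in the endoplasmic reticulum, changed by -0.41 ± 0.11 (adjusted p = 0.0434), and by 0.34 (adjusted p = 0.0378) with spike-in scaling. It was named for this role after its value was seen, and leaving out any single rat ended its call (adjusted p from 0.0692 to 0.125).

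The partners of glucocorticoid action are given beside Hsd11b1. Nr3c1, the glucocorticoid receptor, fell by 0.65 ± 0.10 on the log2 scale (adjusted p = 0.0109), and Serpina6, the corticosteroid-binding globulin of plasma, changed by -1.08 ± 0.11 (adjusted p = 0.00462). Both stayed called with each array left out. With spike-in scaling Nr3c1 changed by 0.10 (adjusted p = 0.351) and Serpina6 by -0.33 (adjusted p = 0.0406). Of 22 genes known to respond to this receptor, 10 were lower and 3 higher, with a median of -0.65. Over all genes 11.3% were lower and 9.06% higher. Among the lower were Per1, a clock gene (-1.56 ± 0.25, adjusted p = 0.0122), and Dusp1, a MAP kinase phosphatase (-1.50 ± 0.14, adjusted p = 0.00368). The higher genes were Lcn2, an iron-binding acute phase protein (2.29 ± 0.27, adjusted p = 0.00646), Igfbp1, a binding protein of insulin-like growth factors (1.93 ± 0.51, adjusted p = 0.0479), and Tat, tyrosine aminotransferase, named after its value was seen (1.14 ± 0.15, adjusted p = 0.00883). Igfbp1 passed the test only with all 6 rats or with vehicle rat 1 left out, and otherwise had an adjusted p from 0.068 to 0.129. With spike-in scaling 4 of the 22 were lower and 8 higher, where 1.66% of all genes were lower and 78.8% higher. With ADBAQ rat 1 or ADBAQ rat 2 left out, 6 were lower and 2 higher. In the list of steroid receptors and binding proteins, which holds Nr3c1 and Serpina6, 3 of 9 were lower and 1 higher, with a median of -0.37 (0.38 with spike-in scaling). Leaving out any rat but vehicle rat 3 left 2 lower and none higher.

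Hsd17b6 and Hsd17b2 oxidise androgens, and Srd5a1 makes the potent androgen dihydrotestosterone from testosterone and helps clear steroids in liver. Hsd17b6, which turns androstanediol back to dihydrotestosterone, fell on both probes (NM_173305). Its brighter probe read 5.31, 5.05 and 4.98 in vehicle and 4.12, 4.45 and 4.06 in ADBAQ, and the groups did not overlap. The change was -0.90 ± 0.15 (adjusted p = 0.0135), and -0.88 ± 0.16 (adjusted p = 0.0164) on the second probe. Without ADBAQ replicate 1 the first was -0.86 (adjusted p = 0.051) and the second -0.81 (adjusted p = 0.0577), and the second also missed the threshold without ADBAQ replicate 3 (-0.82, adjusted p = 0.0549). With spike-in scaling the changes were -0.15 (adjusted p = 0.417) and -0.13 (adjusted p = 0.506).

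Hsd17b2, which inactivates testosterone and oestradiol to their 17-keto forms, did not pass the test. Its probe (NM_024391) read 4.84, 5.26 and 4.99 in vehicle and 4.73, 4.65 and 4.34 in ADBAQ. Every treated rat was below every control, with ADBAQ rat 1 close to vehicle rat 1. The change was -0.46 ± 0.16 (95% interval -0.83 to -0.08, adjusted p = 0.0908). Normexp background correction made it a call (-0.53, adjusted p = 0.0303), and the value was 0.30 (adjusted p = 0.107) with spike-in scaling.

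Srd5a1 did not pass the test either. The brighter of its probes (NM_017070) read 2.75, 3.70 and 3.48 in vehicle and 3.00, 3.23 and 2.24 in ADBAQ. The groups overlapped, with vehicle rat 1 below ADBAQ rats 1 and 2. The change was -0.49 ± 0.34 with a 95% interval of -1.31 to 0.33 (adjusted p = 0.345), or 0.27 (adjusted p = 0.447) with spike-in scaling, and the second probe gave -0.16 ± 0.33 (-0.96 to 0.63). These intervals still hold falls of the size seen in Hsd11b1, so that they do not show an equal level in the groups. Without ADBAQ replicate 3, the rat with the lowest value on both probes, the second probe changed by 0.14 (adjusted p = 0.773).

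Hsd17b11 and Hsd17b13 are the adjoining genes of chromosome 14, and their proteins sit on lipid droplets. Hsd17b11, which can oxidise androstanediol, read 7.80, 7.66 and 7.68 in vehicle and 6.89, 6.99 and 6.81 in ADBAQ on its single probe (NM_001004209). The spread within groups was narrow, with SDs of 0.07 and 0.09, and the groups were well apart. The change was -0.81 ± 0.09 (adjusted p = 0.00596), or 56.9% of the vehicle level, the smallest adjusted p among the 15 probes. It stayed called with each array left out (highest adjusted p = 0.0289). With spike-in scaling it was -0.06, with a 95% interval of -0.32 to 0.21 (adjusted p = 0.646).

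Hsd17b13, a hepatocyte lipid droplet protein with retinol dehydrogenase activity, did not pass the test on either probe (NM_001009684). The brighter probe read 6.09, 5.70 and 5.46 in vehicle and 5.59, 5.05 and 4.97 in ADBAQ, and ADBAQ rat 1 lay above vehicle rat 3. The changes were -0.55 ± 0.23 (adjusted p = 0.141) and -0.49 ± 0.20 (adjusted p = 0.134), or 0.21 and 0.26 with spike-in scaling. Normexp background correction made the second probe a call (-0.61, adjusted p = 0.0408) but not the brighter (-0.49, adjusted p = 0.088). The 95% interval of the brighter probe, -1.10 to 0.00, holds the change of Hsd17b11, so a difference between the neighbours is not shown, and it was not tested. Of 20 other lipid droplet genes tested, 2 were lower, 1 was higher and the median was -0.05, where 11.3% of all genes were lower and 9.06% higher. With spike-in scaling none was lower, 14 were higher and the median was 0.70, where 1.66% of all genes were lower and 78.8% higher. The higher one was Mettl7b, a lipid droplet methyltransferase, at 1.07 ± 0.17 (adjusted p = 0.0122). The lower ones were Dgat2, an enzyme of triglyceride synthesis (-0.60 ± 0.13, adjusted p = 0.0308), and Bscl2, which encodes seipin (-0.41 ± 0.10, adjusted p = 0.0382), and with spike-in scaling the sign of both turned, to 0.16 for Dgat2 and 0.35 for Bscl2. The call of Bscl2 was lost without any 1 array, and that of Dgat2 without any 1 array except ADBAQ replicate 2 (highest adjusted p = 0.11 and 0.0923).

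Hsd17b10 differs from the rest in acting in mitochondria, where it works in isoleucine breakdown and is also a subunit of the RNase P that trims mitochondrial transfer RNA. It read 6.50, 6.37 and 6.38 in vehicle and 5.98, 6.02 and 5.90 in ADBAQ (NM_031682), with SDs of 0.07 and 0.06. The groups were apart and the change was -0.45 ± 0.09 (adjusted p = 0.0206). Its processed signals before any scaling were 41109, 38295 and 36040 in vehicle and 40670, 36900 and 35592 in ADBAQ, which overlap. The unscaled signals of Hsd17b2 overlapped too, at 13030, 17648 and 13725 against 17101, 14287 and 12026. So did those of the second Hsd3b2 probe, at 1029, 1184 and 1220 against 676, 1078 and 660. With spike-in scaling the sign of Hsd17b10 turned, to 0.30 ± 0.11 (adjusted p = 0.0339). The call was also lost without any 1 array except vehicle replicate 3 (adjusted p from 0.0508 to 0.0685). Its RNase P partners Trmt10c (0.08 ± 0.13) and Prorp (0.14 ± 0.17), named for this role after their values were seen, did not pass the test. In the list of mitochondrial RNase P and branched-chain oxidation genes, 4 of 20 were lower and 3 higher, with a median of -0.24. Over all genes 11.3% were lower and 9.06% higher. With spike-in scaling 1 was lower and 15 higher, with a median of 0.52, and leaving out any single ADBAQ rat left 3 lower and 1 higher. The largest fall was that of Ivd, isovaleryl-CoA dehydrogenase (-1.13 ± 0.11, adjusted p = 0.00399), and the largest rise that of Bcat2, the mitochondrial branched-chain aminotransferase (0.87 ± 0.09, adjusted p = 0.00448).

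**Figure D3:**
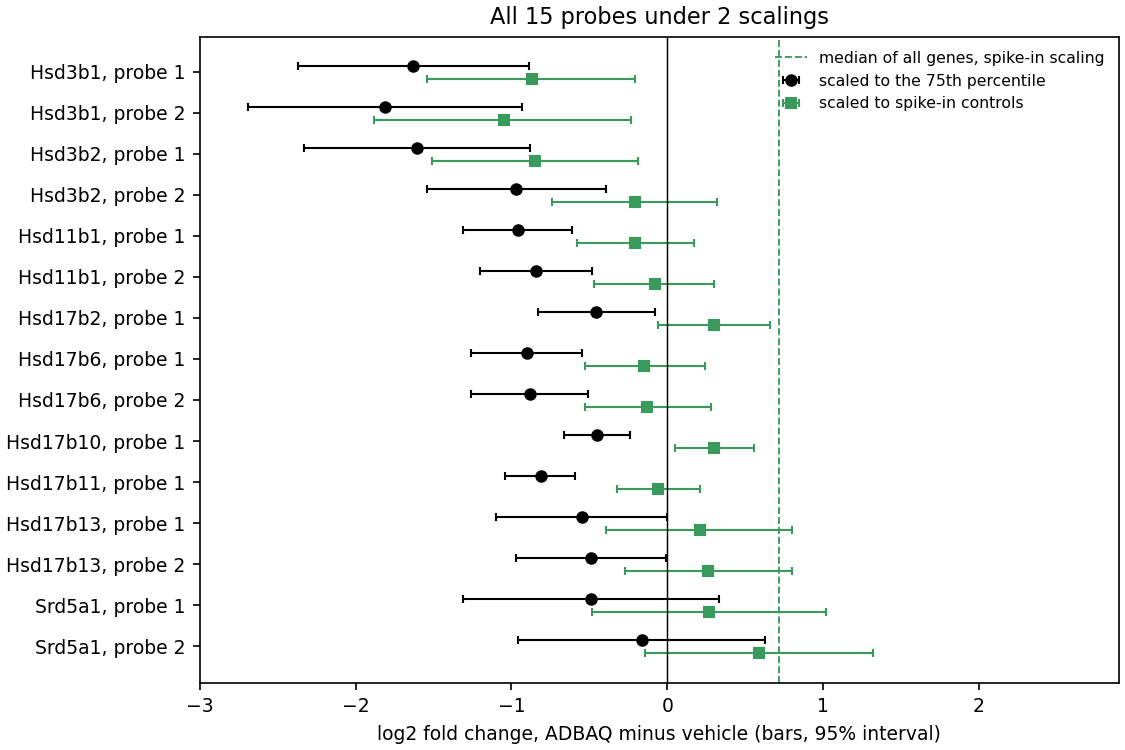
Log2 fold change, ADBAQ minus vehicle (horizontal axis), of all 15 probes with 95% intervals, scaled to the 75th percentile (black circles) and to the spike-in controls (green squares). All black points lie below 0. The green intervals of 3 Hsd3b1 and Hsd3b2 probes stay below 0, among them the dim Hsd3b1 probe, which passed the filter only through the vehicle group. The green interval of Hsd17b10 lies above 0, and the dashed line marks the median of all genes under spike-in scaling, 0.72.

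Under spike-in scaling the signed log2 fold change of each of the 15 probes lay below the median gene's 0.72. Set against that median, Hsd3b1 stood at -1.59, Hsd3b2 at -1.57, Hsd11b1 at -0.93, Hsd17b6 at -0.87, Hsd17b11 at -0.78 and Hsd17b10 at -0.42 on their brighter or only probes. Both scalings subtract a single constant from each array. These values therefore restate the changes relative to the 75th percentile and are no separate support. Of the 9 genes 6 are bright on this array, with a mean at least 4 log2 units above the 75th percentile, a limit set after the data were seen. Among all 1477 genes above it, 21.1% were lower and the median change was -0.11. Relative to the 75th percentile, hepatocyte markers moved with the 9 genes: 6 of 8 were lower and none higher, with a median of -0.47. Some of those 6 calls were lost when a rat was left out, with an adjusted p up to 0.132. Over all genes 11.3% were lower and 9.06% higher. With spike-in scaling 1 of the 8 markers was lower and 3 higher, with a median of 0.29, where 78.8% of all genes were higher. The summed level of the 8, relative to the 75th percentile, was 6000 to 6530 in vehicle and 4600 to 4940 in ADBAQ. The part of a shift in hepatocyte RNA as a whole in the result was not tested.

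Other cell types were checked by their markers. Of 8 markers of adrenal or gonadal steroid-producing cells, Star, Cyp11a1, Cyp11b1 and Lhcgr were not well above background in any rat, and 2 were tested and did not pass the test. Erythroid markers had 3 of 5 higher and a summed level of 2.62 to 3.86 in vehicle and 6.79 to 13.7 in ADBAQ. Cholangiocyte markers had 3 of 6 higher and 1 lower, with sums of 1.76 to 2.04 and 2.78 to 4.28. Each cholangiocyte call and some erythroid calls were lost when 1 rat or another was left out, with an adjusted p up to 0.102 and 0.0755. Macrophage markers had 1 of 8 higher, and none of 8 stellate and none of 4 endothelial markers passed the test. Their part in the changes of the 9 genes was not tested.

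Among 28 other hydroxysteroid dehydrogenases and steroid reductases tested, 8 were lower and 2 higher, with a median of -0.20. Over all genes 11.3% were lower and 9.06% higher. With spike-in scaling 3 of the 28 were lower and 17 higher, with a median of 0.56, where 1.66% of all genes were lower and 78.8% higher. Leaving out any single rat cut the 10 calls to between 2 and 5, with 1 lower when ADBAQ rat 1 or ADBAQ rat 3 was the one left out. The largest falls were those of Akr1c1 (-3.44 ± 0.69, adjusted p = 0.0222) and Akr1c2 (-2.74 ± 0.51, adjusted p = 0.019), aldo-keto reductases of the steroid-reducing family. With spike-in scaling these were -2.68 (adjusted p = 0.00865) and -1.98 (adjusted p = 0.0104). Leaving out vehicle rat 1, vehicle rat 2, ADBAQ rat 1 or ADBAQ rat 3 ended both calls, and vehicle rat 3 that of Akr1c1 as well (adjusted p from 0.0504 to 0.0701). Cbr1, a carbonyl reductase, rose by 1.24 ± 0.21 (adjusted p = 0.0144, and 0.0508 without ADBAQ replicate 1). Of the steroidogenic enzymes and related genes of adrenal and gonad 5 of 12 could be tested and none passed. Retinol dehydrogenases and related short-chain dehydrogenases had 5 of 18 lower and none higher, with a median of -0.24, or none lower and 11 higher with spike-in scaling. Between 1 and 3 were lower when any single rat was left out. Hadh, a mitochondrial enzyme of fatty acid oxidation on this list, read 8.57, 8.60 and 8.33 in vehicle and 7.69, 7.69 and 7.71 in ADBAQ (-0.80 ± 0.10, adjusted p = 0.00803, and -0.05 with spike-in scaling).

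The steroid conjugation list, mainly genes of enzymes that attach sulfate or glucuronic acid, had 3 of 14 higher, none lower and a median of 0.14. Over all genes 9.06% were higher and 11.3% lower. With spike-in scaling 10 were higher, none lower and the median was 0.90, where 78.8% of all genes were higher. Without vehicle rat 1, 5 were higher at the 75th percentile scaling. The 3 were Ugt2b7 (3.25 ± 0.40, adjusted p = 0.00727), Sult2b1 (1.70 ± 0.26, adjusted p = 0.0117) and Ugt2b1 (1.06 ± 0.15, adjusted p = 0.00976). All 3 calls held with each array left out. With normexp background correction Ugt2b7 rose by 1.71 and Sult2b1 by 0.60, as both are dim in vehicle. Steroid-hydroxylating P450s had 5 of 19 higher, 4 lower and a median of -0.06. Scaled to the spike-in controls, 10 were higher and 2 lower, with a median of 0.70. Both counts of higher genes include Cyp1b1, which entered the test through the ADBAQ group alone, where it is higher. When each probe had to clear background in every rat, 18 genes of this list remained, 4 higher and 5 lower. Cyp1a2, a target of the aryl hydrocarbon receptor, rose by 3.88 ± 0.15 (adjusted p = 0.000403). Cyp1b1, another such target, was not well above background in any vehicle rat. It was at least 20.2-fold higher in ADBAQ, as the ADBAQ mean over the lowest signal measured above background on the vehicle arrays. The limma fit gave an adjusted p of 0.00148, which rests on vehicle values not well above background and is no test of that bound. Cyp1b1 passed the filter only through the ADBAQ group, and with normexp background correction its log2 fold change was 2.46. On the same list Cyp2c11, the testosterone hydroxylase of male liver, read 8.37, 8.35 and 8.62 in vehicle and 4.91, 6.18 and 6.21 in ADBAQ. It changed by -2.68 ± 0.36 (adjusted p = 0.00852). ADBAQ rat 1 was the lowest, as on the brighter Hsd3b1 and Hsd3b2 probes and on both Hsd11b1 probes, but not on the Hsd17b10 and Hsd17b11 probes.

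Male-predominant rat liver genes, among them Hsd3b5 and Cyp2c11, had 8 of 15 lower and none higher, with a median of -0.62. With spike-in scaling 4 were lower and 2 higher. Over all genes 11.3% were lower and 9.06% higher, or 1.66% and 78.8% with spike-in scaling. Of the male-predominant genes, 4 were lower when vehicle rat 3 or ADBAQ rat 3 was left out and 5 when ADBAQ rat 2 or vehicle rat 2 was. Without vehicle rat 2, 1 of them was higher. Sult1c3, a sulfotransferase, changed by -2.77 ± 0.19 (adjusted p = 0.00148), and Mup4, a major urinary protein, by -1.51 ± 0.29 (adjusted p = 0.0208). Leaving out vehicle rat 2, vehicle rat 3, ADBAQ rat 1 or ADBAQ rat 3 ended the call of Mup4 (adjusted p from 0.0513 to 0.0668). Female-predominant genes, among them Srd5a1, had 2 of 10 higher, 1 lower and a median of 0.17, or 7 higher and 1 lower with a median of 0.92 with spike-in scaling. Cyp2c12, the female steroid sulfate hydroxylase, rose by 1.43 ± 0.34 (adjusted p = 0.036), and leaving out any of the same 4 rats ended that call too (adjusted p from 0.0666 to 0.0988). Abcc3, an export pump of conjugates, rose by 3.95 ± 0.34 (adjusted p = 0.003). The 1 lower gene was Cyp3a9, a P450 that changed by -5.34 ± 0.34 (adjusted p = 0.0014). Whether the male and female lists differ was not tested.

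**Figure D4:**
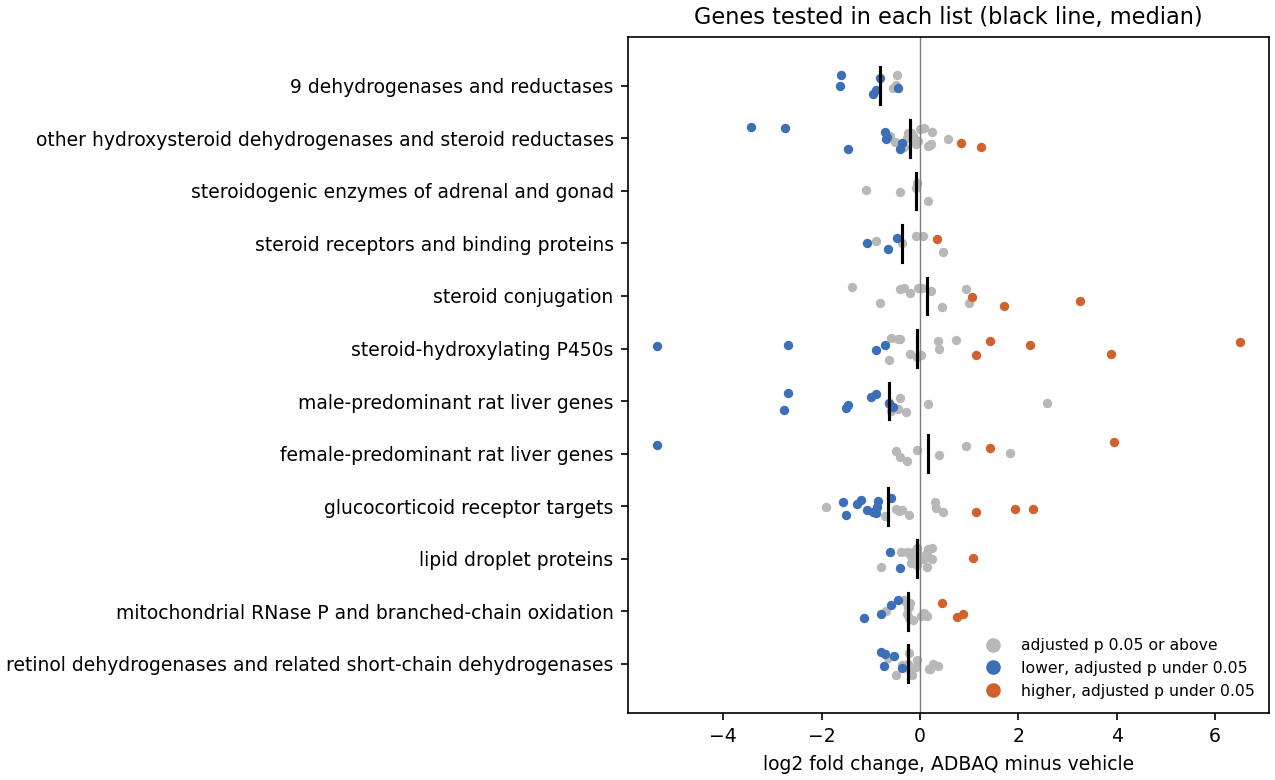
Log2 fold change, ADBAQ minus vehicle (horizontal axis), of each tested gene in the 9 enzymes and in 11 related lists (rows), with genes lower at an adjusted p under 0.05 in blue, higher in orange, others in grey, and the list median as a black line. The 9 enzymes all lie below 0 with a median of -0.81, while the 3 conjugation genes that passed the test lie above 0 under this scaling to the 75th percentile.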

How the data were processed

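Each array file holds the scanner output of 1 rat. Per the file headers, the authors extracted spots with Agilent Feature Extraction 10.7.1.1 on an array designed on rn4, and deposited a processed signal intensity per spot and flags for outliers and for spots well above background. The deposited series table holds a linear ratio per probe, which for probes above the 75th percentile equalled the processed signal divided by that percentile within 1%, up to a constant near 1 for each array (column medians 0.093 to 0.0983). How it was made is not given in the sources used here.

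From the files, control spots and outlier flags were left out, and values taken as log2 minus the array's 75th percentile. A probe was kept if its signal was well above background in every rat of either group (38695 probes). limma 3.58.1 in R 4.3.3 (lmFit, eBayes) compared ADBAQ with vehicle, n = 3 rats each, with Benjamini-Hochberg adjustment over all probes kept. A gene was read on its probe of highest mean signal. The number of arrays limits the precision. Probes were named through RefSeq accessions, 27447 named and 34210 not. On simulated data 55% of probes changed by 1 on the log2 scale and 82% of those changed by 2 were called. Only 100 probes were changed by each amount there, while 2307 genes were called in the real data. The shares called may therefore differ from those of the real comparison. Named genes were all 9 enzymes, up to 4 genes of largest called change per list (11 pathway lists; 10 cell type lists by counts only), and the 3 genes most correlated with the enzyme of largest change. Members and lists were chosen with earlier results of these data known.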

Additional observations from a re-analysis of the deposited data

How the results depend on the processing

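Of 50 recomputed counts of genes, enzymes or probes called, 34 stayed within 1.5 times and 16 moved; all 3 counts stayed with array weights, median centring, quantile normalization, the series table values and trended robust variances. The cause of the moves was not tested. Against 2307 genes called (44.5% of them higher), 3529 were called with no filter (32.4% higher), 4039 with normexp background correction on the median spot signal (34.5% higher), 9126 with spike-in scaling (97.9% higher), and 922 to 1564 with 1 array left out. Of the 9 enzymes, 6 were called against 3 with spike-in scaling and 3 to 5 with 1 array left out, and of their 15 probes 10 were called against 4 and 5 to 8. The 10 and the 4 include the dim Hsd3b1 probe, which passed the filter only through the vehicle group, where it is higher. Of the 14 probes well above background on all 6 arrays, 9 were called. Spike-in scaling reversed the sign of Hsd17b2 (0.30), Hsd17b10 (0.30), Hsd17b13 (0.21) and Srd5a1 (0.27). Replicate numbers did not pair the samples (correlations of -0.0292 to -0.00456), and with the replicate block 982 genes and 6 of the probes were called, Hsd17b10 being lost (adjusted p = 0.0657). Over all settings 134 values of the enzymes kept direction and side of the threshold, 14 lost the call, 1 gained it and 4 reversed; of the list counts 137 stayed within 1.5 times and 50 moved. Slide could not be a block, since each slide held 1 group.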
